A study of Rattus norvegicus with 8 samples.

Results

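A set of 6 cytokine genes of the interleukin-1, interleukin-6, tumour necrosis factor and interleukin-10 systems was followed in burned and unburned rat skin: Il1a, Il1b, Il1rn, Il6, Tnf and Il10. They were taken by Ensembl identifier, and all 6 were among the 26404 gene identifiers of the count table and among the 14240 genes that passed the expression filter. The pairing of identifier and symbol came with the definition of the gene set, since the count table holds no symbols. Poly(A)-enriched RNA was sequenced from dorsal hind paw skin of anaesthetised Sprague-Dawley rats weighing 125 to 200 g. The burn group was 4 libraries from paws held in saline at 60 °C for 2 min, a deep partial-thickness scald, and the control group was 4 libraries from opposite paws held in saline at room temperature. All rats were under urethane, and skin of both groups was cut out at a site that a microdialysis probe had sampled. A control paw therefore came from an animal that was also burned, and skin of unburned animals was not analysed here. The sources used here give neither the age and sex of the rats nor the time from burn to excision.

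Interleukin-1 alpha and interleukin-1 beta are agonists of the same receptor, and the product of Il1rn is an antagonist that binds that receptor without signalling. Interleukin-1 alpha is held preformed in keratinocytes and released when they are damaged, whereas interleukin-1 beta is made as a precursor on stimulation, mainly by myeloid cells, and cleaved by caspase-1. Tumour necrosis factor acts early in inflammation, interleukin-6 follows and drives the acute-phase response, and interleukin-10 restrains the production of inflammatory cytokines by macrophages. Transcripts of several of these genes carry AU-rich elements and are short-lived, so their level in RNA can change quickly.

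Libraries held 13693811 to 18738652 counts in the burn group and 17824830 to 26837925 in the control group. A gene with 0 counts could have been present at up to 0.157 to 0.261 CPM (counts per 1000000 of the scaled library) in a burn library and 0.104 to 0.148 CPM in a control library, taking 3 counts as the limit. Burn replicate 3 stood apart from the other libraries, with 625 genes at 1 to 3 counts where each other library had at least 1642. It also had counts for only 15354 genes, against 17322 to 17547 in the others. The 3-count limit covers counting error only, and whether it holds for scarce genes in that library was not tested. Il6, Tnf and Il10 have counts near 0 in some libraries, and fitted changes are therefore given with and without burn replicate 3. In bulk tissue, fewer cells of a type and less RNA per cell cannot be told apart. Nothing in the labels says whether libraries within a group are from different rats. The p-values below therefore set the group difference against the spread between libraries within a group, which may be technical. All tests are unpaired although the controls are opposite paws, and what this does to the p-values was not tested.

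Of the 6 genes, Il1b alone passed the test between burn and control skin, in the direction of a rise. Over all 14240 genes the same test called 21.9%, with 11.9% higher and 10.0% lower in burn (edgeR quasi-likelihood test, adjusted p under 0.05), so 1 call among 6 genes is near the background share. With library size alone as the scale, the split over all genes was 894 higher and 2138 lower, against 1689 higher and 1426 lower with the trimmed-mean (TMM) scale used here. The median log2 fold change was 0.67 over the 6 genes and 0.06 over all genes tested. The 6 genes did not share a direction: fitted values were above 0 for Il1b, Il6, Tnf and Il1rn and below 0 for Il1a and Il10, although those of Il6, Tnf and Il1rn turned below 0 under at least 1 alternative each. A gene that missed the threshold is not thereby shown to be unchanged, and its 95% interval is given below.

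**Figure D1:**
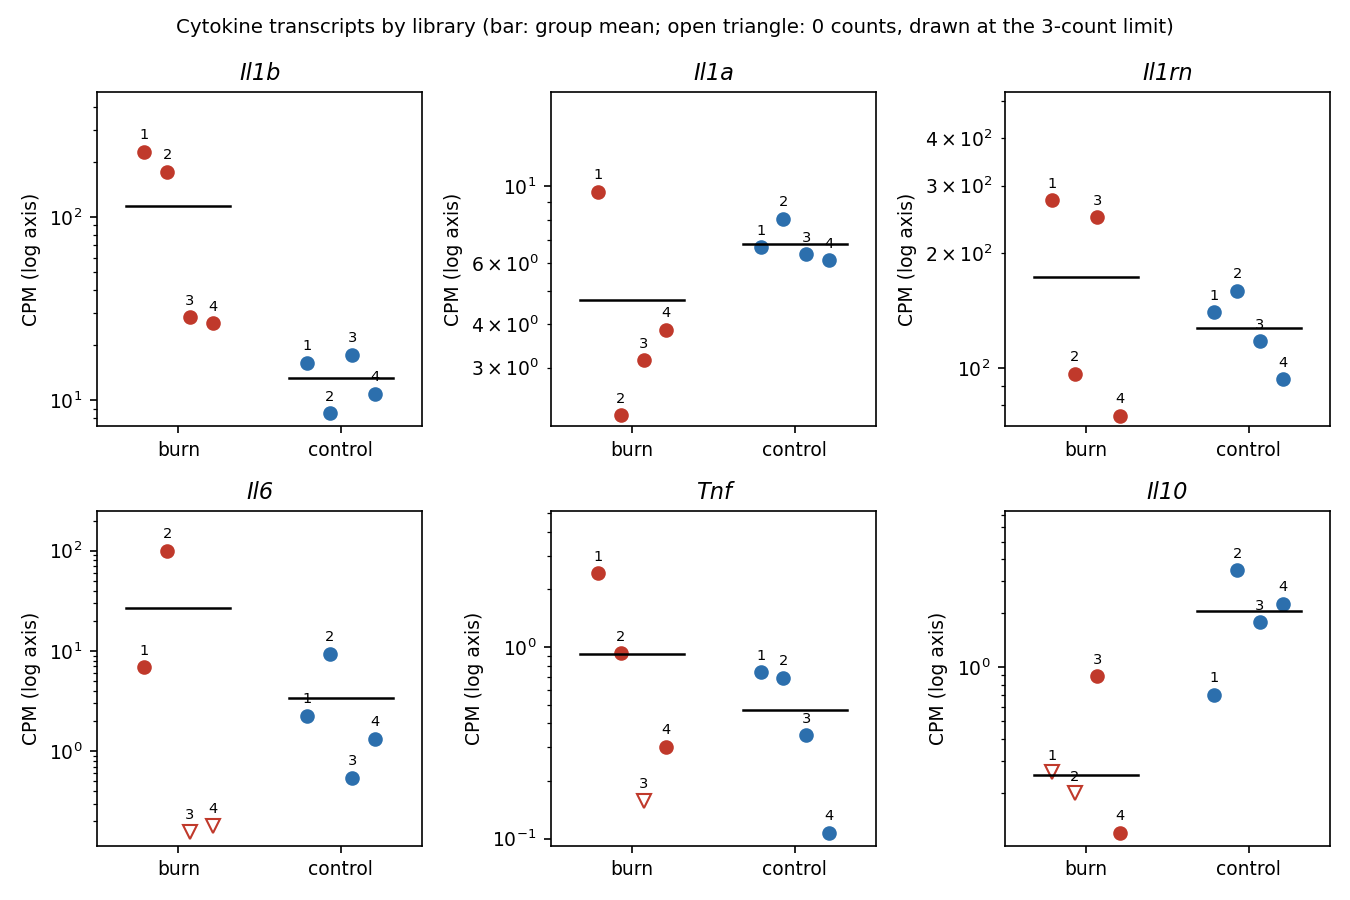
CPM of each cytokine gene (log axis) in the 4 burn libraries (red, left) and the 4 control libraries (blue, right), numbered by replicate. Black bars are group means, and open triangles mark libraries with 0 counts, drawn at the limit of 3 counts. Il1b is the gene whose 4 burn libraries all lie above the 4 control libraries, and Il6 has burn libraries at 99.6 CPM and at 0.

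Among the agonists, Il1b (ENSRNOG00000004649) had 2612, 2672, 542 and 436 counts in burn replicates 1 to 4, against 410, 245, 359 and 303 in controls 1 to 4. Scaled to depth, these were 227, 177, 28.4 and 26.2 CPM in burn and 15.98, 8.49, 17.7 and 10.8 CPM in control. Every burn library lay above every control library, but burn replicates 1 and 2 were far above burn replicates 3 and 4. The latter were closer to the controls than to the other burn libraries. Over all genes tested, 15.4% had burn libraries that all lay above the controls. The group means were 115 ± 103 CPM in burn and 13.3 ± 4.32 CPM in control (SD, n = 4 each). The fitted log2 fold change was 3.11 (SE 0.74, 95% interval 1.45 to 4.78; edgeR quasi-likelihood test, adjusted p = 0.0201), or 8.64-fold, rank 190 from the top among 14240 genes. A two-sided exact permutation test of the CPM values gave p = 0.0286, the smallest that 4 against 4 libraries allows. The call was lost without burn replicate 1 (adjusted p = 0.0508, log2 fold change 2.54) and without control replicate 1, 2 or 4 (edgeR adjusted p = 0.0556, 0.0701 and 0.0635), whereas the rise was 3.43 log2 units without burn replicate 3 (edgeR adjusted p = 0.00876). Over all 16 alternatives the adjusted p ran from 4.40e-05 to 0.0701.

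The start of Il1b is shown because it is the gene that passed the test. The 300 bases run from 250 before to 50 after the RefSeq start, at chr3:137036532-137036831 on the minus strand of GRCr8, a later build than the Rnor_5.0 named for the counts, and were matched by symbol.
Il1b: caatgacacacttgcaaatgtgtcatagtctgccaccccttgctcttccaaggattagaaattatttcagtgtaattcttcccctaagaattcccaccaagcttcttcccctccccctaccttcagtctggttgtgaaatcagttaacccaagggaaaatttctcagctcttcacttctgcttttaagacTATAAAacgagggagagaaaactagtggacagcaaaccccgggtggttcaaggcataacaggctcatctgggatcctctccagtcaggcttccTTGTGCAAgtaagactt
Capitals mark matches to motif letters searched on both strands: TATAAA at position -60, and TTGCNNAA, the core bound by C/EBP factors, at position 34 on the reverse strand, where position 1 is the start. The first is held by 14.2% and the other by 10.6% of the 33469 rat promoters of this length. No match to the NF-kB decamer, to the cyclic AMP response element TGACGTCA, to the AP-1 core TGANTCA or to the paired heat shock unit GAANNTTC lies in this window. These matches and their absence describe letters and say nothing about binding of a factor.

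Il1a (ENSRNOG00000004575) showed no such separation. It had 9.64, 2.19, 3.15 and 3.85 CPM in burn replicates 1 to 4, from 111, 33, 60 and 64 counts, and 6.67, 8.07, 6.37 and 6.12 CPM in controls 1 to 4, from 171, 233, 129 and 171 counts. Burn replicates 2, 3 and 4 lay below all controls and burn replicate 1 above them all. The group means were 4.71 ± 3.36 CPM in burn and 6.81 ± 0.87 CPM in control (SD, n = 4 each), and the log2 fold change of -0.54 (SE 0.44, 95% interval -1.54 to 0.45) did not pass (edgeR adjusted p = 0.400). Without burn replicate 1 it was -1.15 and passed (edgeR adjusted p = 0.0447), and without burn replicate 3 it was -0.40 (edgeR adjusted p = 0.541). In the GRCr8 gene table the span of Il1a overlaps that of the long non-coding gene LOC120101660. Shared exons were not looked for, and the strand setting of the counting is not given. Whether reads of the pair were mixed was therefore not tested.

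The number of Il1b counts per Il1a count within a library does not depend on depth or scaling. It was chosen for description after the counts were seen, and its size depends on the lengths of both transcripts. It was 23.5, 81.0, 9.03 and 6.81 in burn replicates 1 to 4, and 2.40, 1.05, 2.78 and 1.77 in controls 1 to 4. The groups did not overlap. The lowest burn value had a 95% counting interval of 5.23 to 9.001, and the highest control value one of 2.27 to 3.43. Il1b CPM separates the groups by itself, so the ratio is not separate support. Its counting intervals hold no spread between libraries, and the share of other gene pairs that separate was not computed. The burn libraries spread over a wider range of this ratio than the controls did, with burn replicate 2 the highest.

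Il1rn (ENSRNOG00000005871), the receptor antagonist, had 274, 96.9, 248 and 75.2 CPM in burn replicates 1 to 4 and 140, 160, 118 and 93.5 CPM in controls 1 to 4. Burn replicates 1 and 3 were above all controls, burn replicate 4 was below them all and burn replicate 2 was at the low end of their range. The means were 174 ± 102 CPM in burn and 128 ± 28.5 CPM in control (SD, n = 4 each). The log2 fold change was 0.44 (SE 0.42, 95% interval -0.50 to 1.39; edgeR adjusted p = 0.473), so a rise above 2.62-fold lies outside the interval of this fit. Without burn replicate 3 it was 0.22 (edgeR adjusted p = 0.735). In the GRCr8 gene table the span of Il1rn overlaps that of Il36b, a neighbouring gene of the interleukin-1 family. Shared exons were not looked for here either, and whether reads of that pair were mixed was not tested.

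The antagonist was set against each agonist by the ratio of counts within a library. For each Il1b count there were 1.21, 0.547, 8.71 and 2.86 Il1rn counts in replicates 1 to 4 of the burn group, and 8.76, 18.8, 6.63 and 8.62 in controls 1 to 4. Burn replicates 1, 2 and 4 were below every control library, and burn replicate 3, at 8.71 with a 95% counting interval of 7.97 to 9.54, was within the control range. Burn replicate 2 had the lowest value of the 8 libraries and control replicate 2 the highest. For each Il1a count there were 28.5, 44.3, 78.7 and 19.5 Il1rn counts in burn, and 21.0, 19.8, 18.4 and 15.3 in control. Burn replicates 1, 2 and 3 were above every control on this ratio and burn replicate 4 was within their range. Both ratios are given as a description. Counting intervals hold no spread between libraries, and the share of other gene pairs with such patterns was not computed. Il1rn did not pass the test between the groups, and its ratio to Il1b also moves with Il1b alone.

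**Figure D2:**
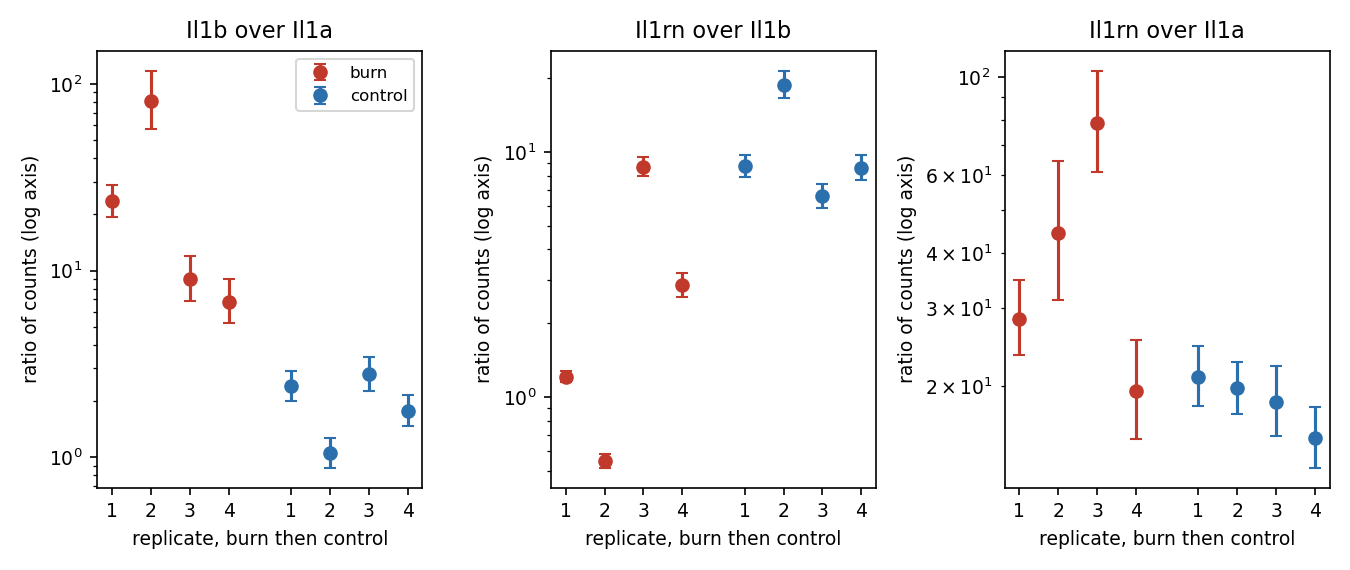
Ratios of counts within a library (log axis) for Il1b over Il1a, Il1rn over Il1b and Il1rn over Il1a, in burn replicates 1 to 4 (red, left) and control replicates 1 to 4 (blue, right), with 95% counting intervals. Il1b over Il1a is 6.81 or more in each burn library and 2.78 or less in each control library, and burn replicate 3 lies among the controls for Il1rn over Il1b.

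Il6 (ENSRNOG00000010278) varied most. Counts were 79, 1504, 0 and 0 in burn replicates 1 to 4, and 58, 271, 11 and 37 in controls 1 to 4. This is 6.86 and 99.6 CPM in burn replicates 1 and 2, at most 0.157 and 0.181 CPM in burn replicates 3 and 4 by the 3-count limit, and 2.26, 9.39, 0.544 and 1.32 CPM in the controls. The highest and the lowest levels of the 8 libraries were thus both in burned skin, with burn replicate 1 inside the control range and burn replicates 3 and 4 below all controls. The SD of log2 CPM among burn libraries was 4.92, rank 1 of the 14240 genes tested, and that among control libraries was 1.63, rank 68, where the median gene had 0.52 in burn and 0.25 in control. Libraries at 0 enter these SDs through the prior count of 2, which sets their log2 value.

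Il6 did not pass the test between the groups. The means were 26.6 ± 48.8 CPM in burn and 3.38 ± 4.07 CPM in control (SD, n = 4 each), and the log2 fold change of 2.97 had an SE of 1.86 and a 95% interval of -1.25 to 7.18 (edgeR adjusted p = 0.276). Burn replicate 2 set the sign and most of the mean. Without it the burn mean was 2.29 CPM and the log2 fold change was -0.62 (edgeR adjusted p = 0.790). Limma-voom, which weighs log values, gave -1.75 with all libraries (adjusted p = 0.603). Without burn replicate 3 it was 3.37 (edgeR adjusted p = 0.152). A two-sided exact permutation test of the CPM values gave p = 0.714.

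The start of Il6 is shown beside that of Il1b as the gene with the widest spread in burned skin. It lies at chr4:5894526-5894825 on the minus strand of GRCr8 (RefSeq, matched by symbol).
Il6: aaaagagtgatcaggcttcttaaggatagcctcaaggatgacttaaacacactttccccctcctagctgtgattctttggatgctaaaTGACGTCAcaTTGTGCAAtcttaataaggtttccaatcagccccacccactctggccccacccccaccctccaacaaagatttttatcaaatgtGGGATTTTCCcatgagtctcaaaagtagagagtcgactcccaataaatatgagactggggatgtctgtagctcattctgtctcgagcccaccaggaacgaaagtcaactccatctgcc
Capitals mark the NF-kB decamer at position -68, TGACGTCA at position -162 and a match to the C/EBP core on the reverse strand at position -152. The share of rat promoters that hold each was 4.18% for the decamer, 1.83% for TGACGTCA and 10.6% for the C/EBP core. None of these 3 matches overlap each other.

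Tnf (ENSRNOG00000000837) was scarce throughout. Counts were 28, 14, 0 and 5 in burn replicates 1 to 4, and 19, 20, 7 and 3 in controls 1 to 4. This corresponded to 2.43, 0.928, at most 0.157 and 0.301 CPM in burn, and 0.741, 0.693, 0.346 and 0.107 CPM in control. Burn replicates 1 and 2 were above all controls, although the 14 counts of burn replicate 2 have a 95% counting interval of 7.65 to 23.5, and burn replicate 4 was inside the control range. The means were 0.915 ± 1.08 CPM in burn and 0.472 ± 0.300 CPM in control (SD, n = 4 each). The log2 fold change was 0.89 (SE 1.08, 95% interval -1.54 to 3.33; edgeR adjusted p = 0.578), and it was -0.24 without burn replicate 1 (edgeR adjusted p = 0.899) and 1.32 without burn replicate 3 (edgeR adjusted p = 0.247). The log2 fold change with no library left out was smaller than its SE. The mean CPM values differed by less than the burn SD and by more than the control SD.

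Il10 (ENSRNOG00000004647) was the member with the lowest burn values relative to control. Counts were 0, 0, 17 and 2 in burn replicates 1 to 4, and 18, 100, 36 and 63 in controls 1 to 4. In CPM, burn replicates 1 and 2 were at most 0.261 and 0.199, burn replicates 3 and 4 were 0.892 and 0.120, and the controls were 0.702, 3.46, 1.78 and 2.26. Burn replicates 1, 2 and 4 lay below all controls, and burn replicate 3 lay above control replicate 1 and below the rest. The means were 0.253 ± 0.430 CPM in burn and 2.05 ± 1.14 CPM in control (SD, n = 4 each), and without burn replicate 3 the burn mean was 0.040 CPM. Over the libraries of each group 19 counts in burn stood against 217 in control, and 17 of the 19 were from burn replicate 3. After scaling this is 0.144 of the control level (95% counting interval 0.0853 to 0.231). That interval pools reads over libraries and leaves out the spread between them, so it is no test of the groups.

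The lower Il10 values did not pass the threshold of the test, with a log2 fold change of -2.88 (SE 1.05, 95% interval -5.25 to -0.50; unadjusted p = 0.0228 and adjusted p = 0.0804 by the edgeR quasi-likelihood test). It ranked 85 from the bottom among 14240 genes. A two-sided exact permutation test of the CPM values gave p = 0.0571. The call depended on burn replicate 3 and on the tool: the log2 fold change was -5.33 without that library (edgeR adjusted p = 0.00826), and the adjusted p with all 8 libraries was 0.0223 by the DESeq2 Wald test, 0.0372 by limma-voom and 0.00400 with 1 surrogate variable in edgeR. The surrogate variable was 0.794 in burn replicate 3 and -0.571 in burn replicate 2, and smaller in size in every other library. The fit with it is therefore not separate from leaving burn replicate 3 out. Over all alternatives the adjusted p of Il10 ran from 0.00400 to 0.198, and the fitted log2 fold change stayed below 0 in each.

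**Figure D3:**
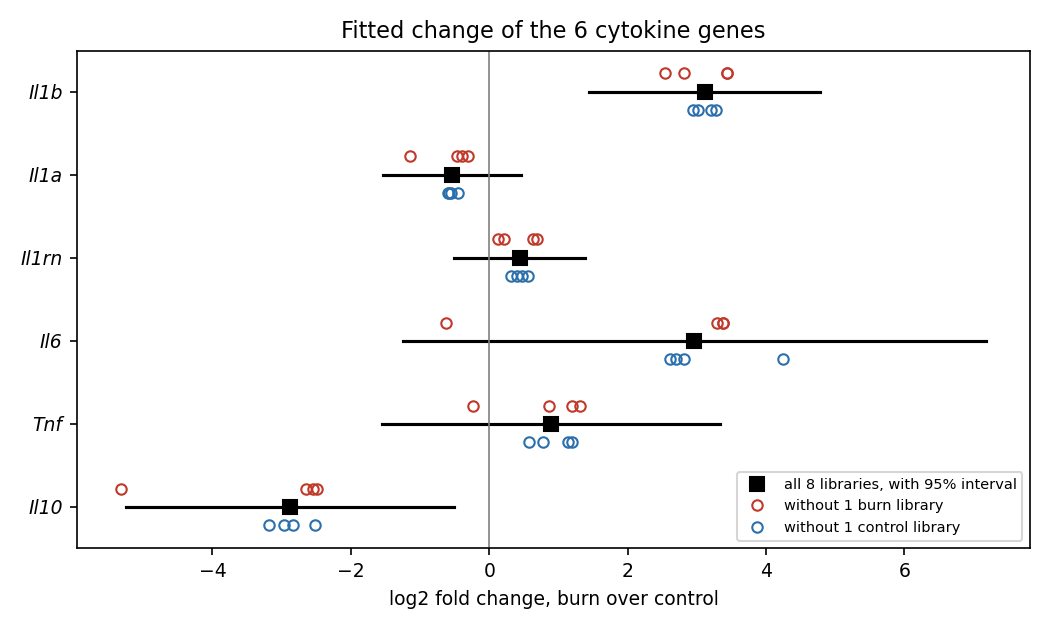
Log2 fold change of each cytokine gene, burn over control, from all 8 libraries (black square, with its 95% interval) and with 1 burn library (red circles) or 1 control library (blue circles) left out. The interval of Il1b runs from 1.45 to 4.78, that of Il10 from -5.25 to -0.50, and Il6 and Tnf change sign when burn replicate 2 or burn replicate 1 is left out.

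Read library by library, the burn libraries held different mixtures of these transcripts. Whether the skin sites or the libraries differed was not tested. Burn replicate 1 held the highest Il1b, Il1a, Il1rn and Tnf levels of the 8 libraries and 0 Il10 counts. Burn replicate 2 held the highest Il6 level, the lowest Il1a level and 0 Il10 counts. Burn replicate 3 had 0 counts of Il6 and Tnf together with Il1rn at 248 CPM and the most Il10 of the burn libraries. Burn replicate 4 had 0 counts of Il6 and the lowest Il1rn level of the 8 libraries.

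Il1a, Il1rn, Il6 and Tnf each had at least 1 burn library above all controls and at least 1 below them all, a pattern found in 4252 of the 14240 genes tested, or 29.9%. For Tnf the low library is one at 0 counts, whose limit of 0.157 CPM is above the 0.107 CPM of the lowest control. The SD of log2 CPM was larger among burn than among control libraries for all 6 genes, with medians of 1.62 in burn and 0.70 in control. Over all genes tested the medians were 0.52 in burn and 0.25 in control, so larger spread in burn was not particular to these genes. Scarce genes have wider counting error, which enters these SDs for Tnf and Il10.

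Genes with the most similar profile over the 8 libraries were found by the root mean square difference of centred log2 CPM, with the median gene given for scale. ENSRNOG00000012183 was nearest to Il1a, at 0.17 against a median of 0.86, and ENSRNOG00000004278 was nearest to Il1rn, at 0.21 against 0.82. ENSRNOG00000036648 was nearest to Tnf, at 0.40 against 1.46, and it too had 0 counts in burn replicate 3. ENSRNOG00000021285 was nearest to Il10, at 0.63 against 2.00. It had 3.13, 2.92, 20.1 and 8.85 CPM in burn replicates 1 to 4 and 28.8, 35.5, 41.3 and 40.9 CPM in controls 1 to 4. These genes were chosen for their likeness over the same 8 libraries, so their levels are a description. The sources used here do not pair these 4 identifiers with names. Receptors, signalling genes and cell type markers of these pathways were not analysed here for the same reason.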

How the data were processed

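Poly(A) RNA of burn and control skin was sequenced, in 4 libraries for each group. The authors deposited raw read counts, as whole numbers for each Ensembl gene and with a column for each library. The build Rnor_5.0 and the tools HTSeq 0.5.4p3, TopHat2 2.0.9, limma, edgeR and R 3.0.1 are listed in the submitters' processing notes without roles. For the annotation release, any filter and the strand setting, nothing is given in the sources used here. Rows without a gene numbered 0. None of the 47357 genes of the reference table carries an Ensembl identifier (0 entries), so the preset pathway and marker lists, and names for other genes, were not used here.

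Groups came from the treatment label, and replicate numbers were given in accession order. All genes were fitted in edgeR 4.0.16 (R 4.3.3) with TMM factors, the default filter, the group as the model, robust quasi-likelihood tests and Benjamini-Hochberg adjustment over 14240 genes at 0.05. The SE is the log2 fold change divided by the square root of F. CPM uses TMM-scaled totals of the genes tested, and log2 CPM a prior count of 2. Single values were compared by exact permutation over 70 divisions of the libraries, which takes them as exchangeable, although paws of 1 rat are not. Counting intervals are exact at 95% (Poisson for a count, binomial for a ratio), and intervals and the 3-count limit cover counting error only. The procedure was tested on simulated data. Alternatives used DESeq2 1.42.0, limma 3.58.1, sva 3.50.0, other scalings and filters, and each library left out. All 6 genes are named whatever their values. The nearest profile was taken for each, and of these the 2 higher and the 2 lower in burn with the smallest difference are named. The genes, lists and alternatives were chosen with earlier results of these data known.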

Additional observations from a re-analysis of the deposited data

Results flagged for a closer look

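In 18 screens of CPM and ratios within groups of 4 libraries, 2 had a library well apart from the rest. For normally distributed values chance picks about 1 in 20 such groups. The CPM values screened include libraries at 0 counts and the ratios reuse the same counts, so that rate need not hold here. Il6 was at 99.6 CPM in burn replicate 2, where the next burn library had 6.86 CPM. Il10 was at 0.892 CPM in burn replicate 3, where the next burn library had 0.120 CPM, from 17 and 2 counts. Burn replicate 3 is also the library with 625 genes at 1 to 3 counts, and the part of that in the Il10 value was not tested.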

How the results depend on the processing

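Of 95 recomputed log2 fold changes of the 6 genes, 78 were counted as changing neither direction nor side of the threshold. The 78 include the DESeq2 value of Il6, which kept its direction but has no adjusted p. No paired analysis was possible because the labels give no animal or replicate number that ties a burned paw to its control. Il1b stayed above 0 in all 16 alternatives, at 2.31 to 3.44 log2 units, and at 2.54 to 3.44 with 1 library left out. With 1 library left out Il1a ranged from -1.15 to -0.31, Il1rn from 0.13 to 0.69, Il6 from -0.62 to 4.25, Tnf from -0.24 to 1.32 and Il10 from -5.33 to -2.49. Limma-voom gave -1.75 for Il6, -0.32 for Tnf and -3.94 for Il10. With sample quality weights it gave -2.19 for Il6, -0.046 for Il1rn and -4.06 for Il10. With 1 surrogate variable Il6 was -2.17 and Il10 -4.38, and the DESeq2 Wald test gave -2.98 for Il10 and no adjusted p for Il6. The adjusted p over all alternatives ran from 0.0447 to 0.593 for Il1a, 0.212 to 0.936 for Il1rn, 0.152 to 0.790 for Il6 and 0.247 to 0.899 for Tnf. The cause of these changes was not tested. Tnf could not be fitted at 1 CPM in at least 4 libraries, which removed it. Of the 6 genes the number called higher was 0 to 1 and the number called lower 0 to 1 when a library was left out. At an adjusted p of 0.01 the number called higher was 0. The number called lower was 1 by DESeq2, by limma-voom, by limma-voom with weights and with 1 surrogate variable.

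With library size alone the median over all genes was -0.15 log2 units, against 0.06 with TMM, and relative to that median Il1b was 2.91 and Il10 -2.75, against 3.05 and -2.94 with TMM. Over all genes, library size alone called 894 higher, DESeq2 called 2196 lower, 1 surrogate variable called 2775 higher and 2985 lower, and an adjusted p of 0.01 called 412 and 267. Leaving out 1 library gave 673 to 2314 higher and 546 to 1929 lower. Il6 and Il10 each had 2 burn libraries at 0 counts and Tnf had 1, where depth gives an upper limit and no level.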
